A study of Homo sapiens with 6 samples.

Results

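The genes described here are 10 feedback genes of the RAS-RAF-MEK-ERK cascade: 5 dual-specificity phosphatases (DUSP1, DUSP4, DUSP5, DUSP6 and DUSP7), the Sprouty genes SPRY2 and SPRY4, the Sprouty-related genes SPRED1 and SPRED2, and PHLDA1, which encodes a pleckstrin homology-like domain protein. They were read by symbol from a table of raw counts for 60605 Ensembl genes, and all 10 were present and passed the filter on low counts that left 14479 genes for testing. DUSP4 was chosen by its higher counts in the TIM-1 libraries, so its difference between the vectors is a description with no test. The rest were chosen by their roles in the pathway, with earlier results of these data known. The cells were UMUC3, an established human bladder cancer cell line. One group of 3 libraries came from cells infected with the vector TIM-1-PLVX-IRES-zsgreen, which carries TIM-1 (gene symbol HAVCR1), a cell surface receptor studied mainly in kidney injury and in immune cells. The other 3, the controls, came from cells infected with the empty vector PLVX-IRES-Zsgreen, so that both groups received the ZsGreen marker. The series asks how the transcriptome differs between cells with and without introduced TIM-1. The labels do not say whether the infected cells were pools or clones, or whether the replicates were separate cultures. The p-values therefore speak only of library-to-library spread, part or all of which could be technical.

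ERK phosphorylates transcription factors that switch on immediate early genes such as FOS and EGR1 and, with some delay, genes whose products dampen the cascade. Among these products, dual-specificity phosphatases remove phosphate from MAP kinases: DUSP6 and DUSP7 act on ERK in the cytoplasm, DUSP5 on ERK in the nucleus, and DUSP1 and DUSP4 are nuclear enzymes that also accept JNK and p38. Sprouty and Spred proteins act further up, between growth factor receptors, RAS and RAF, with SPRED1 bringing the RAS inhibitor neurofibromin to the membrane. Messenger RNA of several of these genes is widely read as a gauge of ERK output in tumour cells.

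Total counts ran from 14312387 to 18605914 per library. HAVCR1 had 7069, 9824 and 11479 counts in the TIM-1 libraries and 4, 0 and 0 in the empty vector libraries, so the libraries matched their labels. Replicate 1 of both groups stood apart from replicates 2 and 3, and the labels do not say what the replicate number marks. Of 6 epithelial markers 2 passed the filter on low counts, KRT18 at 272 to 511 CPM (counts scaled to library size) and KRT8 at 42.85 to 49.95 CPM. EPCAM was at 0 in every library, and CDH1, KRT7 and KRT19 reached at most 0.138, 0.866 and 0.752 CPM. The list, mostly KRT18, summed to 322 to 434 CPM in the TIM-1 group and 358 to 558 CPM in controls. Of 10 urothelial markers, UPK3A and KRT20 were at 0 throughout, and the list summed to 11.3 to 12.4 CPM and 8.71 to 10.7 CPM respectively. The 4 mesenchymal markers summed to 1603 to 1955 CPM and 1801 to 2312 CPM. The 4 leukocyte and 3 endothelial markers were near 0, with sums of at most 0.0690 and 0.270 CPM. The 4 fibroblast markers summed to 9.22 to 15.9 CPM (TIM-1) and 5.67 to 9.33 CPM (controls), and the part of the marker differences in the results was not tested.

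DUSP1 was the most abundant of the 10 transcripts per unit of length. Its level scaled to merged exon length and library total (TPM) averaged 255 over the 6 libraries and ran from 164 to 296. That placed it at percentile 95.8 of the 11933 tested coding genes. PHLDA1 followed with 55.3 TPM, DUSP5 with 49.4 TPM, SPRED2 with 42.6 TPM and SPRY4 with 34.3 TPM. DUSP7 averaged 29.8 TPM, DUSP4 25.0 TPM, SPRY2 16.0 TPM and SPRED1 13.9 TPM, the last at percentile 39.8. DUSP6, which ranked between DUSP4 and SPRY2, ran from 8.10 to 27.4 TPM. DUSP1 was thus far above the others, and all 10 genes were transcribed in both groups. In this order, DUSP1 exceeded PHLDA1 in all libraries and SPRED2 exceeded SPRY4 in all libraries, while the values of every other pair of neighbours overlapped. With the length of the longest coding transcript in place of merged exons, chosen as an alternative after the data were seen, DUSP7 had 50.4 TPM, SPRY4 45.6 TPM and SPRED2 53.6 TPM, so ranks 3 to 6 depend on the length used.

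**Figure D1:**
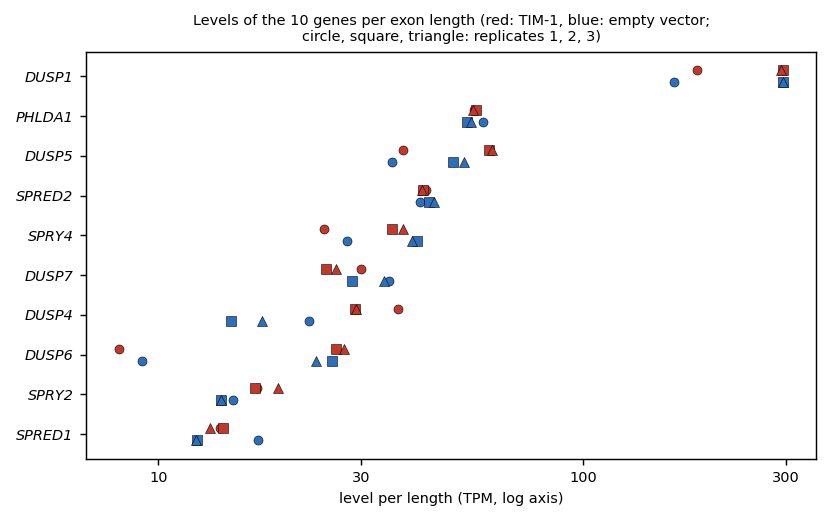
Level of each of the 10 genes per unit of exon length (TPM, log axis) in the 6 libraries, with genes ordered by their mean. DUSP1 stands above all others in every library, and most neighbouring genes overlap.

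DUSP4 (ENSG00000120875, GRCh38 chr8:29333064-29350668, minus strand), chosen for its difference between the vectors, encodes a nuclear MAP kinase phosphatase. It had 73.5, 59.8 and 61.6 CPM in TIM-1 replicates 1 to 3, compared with 44.6, 30.7 and 38.5 CPM in the empty vector replicates. All 3 TIM-1 libraries lay above all 3 empty vector libraries, as for 6.6% of all tested genes. Replicate 1 was the highest library of each group. The TIM-1 mean of 65.0 ± 7.46 CPM stood against a control mean of 37.9 ± 6.98 CPM (SD over 3 libraries each), a fold of 1.71. On the log2 scale the difference was 0.78, and within same-numbered replicates it was 0.72, 0.96 and 0.67. Over 15 other ways of fitting the same counts, it ran from 0.64 to 0.90, a range that describes these libraries only, since the gene was chosen on them. DUSP4 made up 28.2%, 17.2% and 17.1% of the summed CPM of the 5 phosphatase genes in the TIM-1 libraries, against 19.9%, 9.67% and 11.0% with the empty vector. This share rests on the counts for which the gene was chosen. The sum itself was 261 and 225 CPM in replicate 1 of the TIM-1 and empty vector groups, and 317 to 359 CPM in the other libraries. In bulk RNA, more RNA per cell and a larger share of cells that express the gene cannot be told apart.

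The remaining 9 genes showed no called difference between the vectors in the unpaired comparison. With edgeR's quasi-likelihood test and Benjamini-Hochberg adjustment over all tested genes, 0 of the 9 passed an adjusted p of 0.05 in either direction, 1 had an unadjusted p under 0.05, and DESeq2 called 0. Over all 14479 genes 2 passed, or 0.0138%, and 795 had an unadjusted p under 0.05. The median absolute log2 difference of the 9 genes was 0.07, against 0.12 over all tested genes, which include genes of lower counts and were not matched for level. The lowest adjusted p of the 9 was 0.879, for DUSP7.

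**Figure D2:**
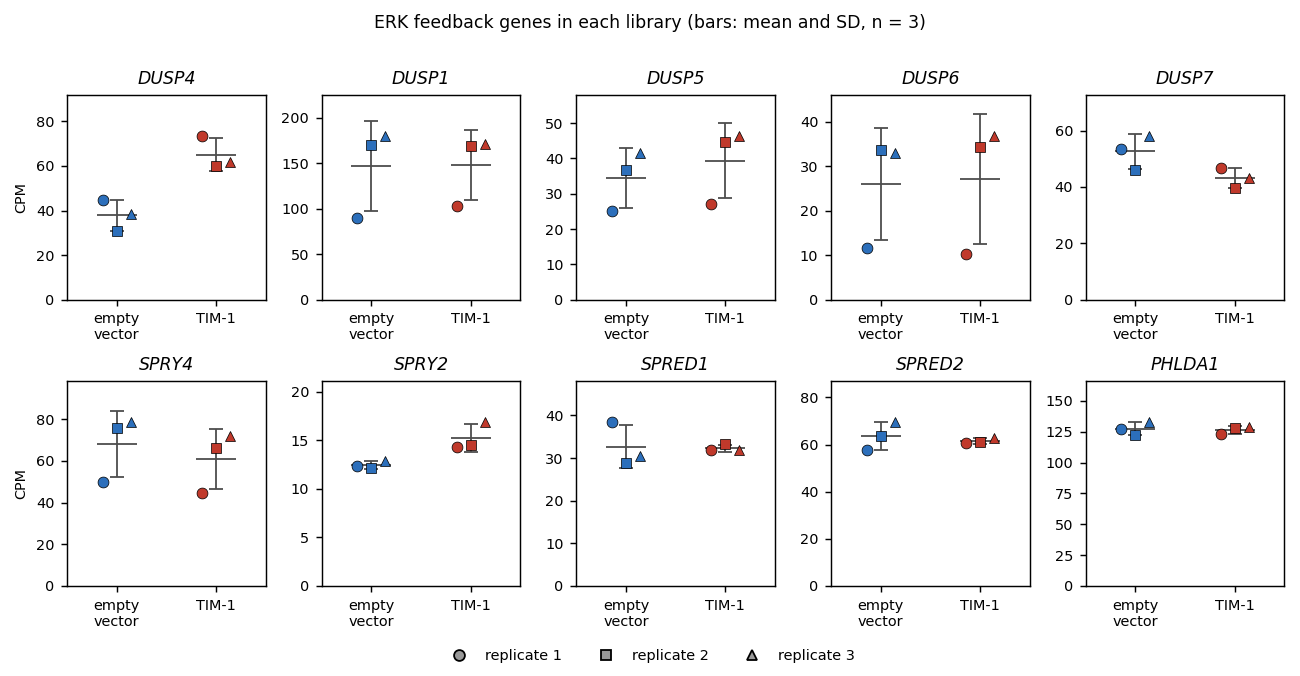
CPM of each of the 10 genes in the empty vector and TIM-1 libraries, with one symbol per replicate number and bars for the mean and SD (n = 3). DUSP4, chosen for its difference, and SPRY2 separate the groups, as do 6.6% of all tested genes with TIM-1 higher. Both replicate 1 libraries lie below the other 4 for DUSP1, DUSP5, DUSP6, SPRY4 and SPRED2, as for 20.4% of all tested genes.

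DUSP7 (ENSG00000164086, chr3:52048919-52056550, minus strand), a cytoplasmic ERK phosphatase, had 46.6, 39.8 and 43.1 CPM in the TIM-1 libraries, compared with 53.6, 46.0 and 58.2 CPM in the controls. It was lower with TIM-1 in every same-numbered pair, by log2 differences of -0.20, -0.21 and -0.43, though the groups overlapped. The unpaired log2 difference was -0.28 (SE 0.12). When replicate number was added to the fit as a block, DUSP7 fell by 0.28 on the log2 scale (SE 0.08, edgeR adjusted p 0.0264), the 1 of the 9 genes called, in a fit that called 1.79% of all tested genes lower and 3.22% higher. That call was lost without replicate 2 (adjusted p 0.189) and without replicate 3 (0.267), with a block for replicate 1 alone (0.0749) and with DESeq2 in the blocked design (0.219). Between replicates 3 and 2, DUSP7 also differed by 0.23 on the log2 scale, at an adjusted p of 0.674.

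SPRY2 (ENSG00000136158, chr13:80335976-80340951, minus strand), an inhibitor of receptor tyrosine kinase signalling, had 14.3, 14.5 and 16.9 CPM in the TIM-1 libraries, compared with 12.3, 12.1 and 12.9 CPM in the controls. The groups did not overlap, as for 6.6% of all tested genes in that direction. The means were 15.2 ± 1.44 and 12.5 ± 0.407 CPM (SD, n = 3 each), and the log2 difference of 0.29 (SE 0.13) had an edgeR adjusted p of 0.891, or 0.178 with the block. It was positive in each pair, at 0.21, 0.26 and 0.38. A single sign in all pairs was seen for 39.2% of tested genes.

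SPRY4 (ENSG00000187678, chr5:142310427-142326455, minus strand), which acts on the same pathway, went the other way in value. It had 44.5, 66.1 and 72.1 CPM in the TIM-1 libraries, compared with 49.6, 75.8 and 78.6 CPM in the controls, and the groups overlapped. The pairs differed by -0.16, -0.20 and -0.13 on the log2 scale, and the fitted difference was -0.16 (SE 0.22, edgeR adjusted p 0.941, or 0.224 with the block). The antisense gene SPRY4-AS1 overlaps its span but no exon of it in GENCODE 29, and had 117 counts over the 6 libraries against 6370 for SPRY4.

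DUSP5 (ENSG00000138166, chr10:110497838-110511544, plus strand), the nuclear ERK phosphatase, had 27.2, 44.6 and 46.4 CPM in the TIM-1 libraries, compared with 25.1, 36.8 and 41.4 CPM in the controls. Each TIM-1 library exceeded its same-numbered partner, by 0.11, 0.28 and 0.16 on the log2 scale. The fitted difference was 0.20 in the unpaired comparison (SE 0.24, edgeR adjusted p 0.939) and 0.19 with the block (adjusted p 0.232), and the groups overlapped.

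The other 5 genes lay close to 0. DUSP1 (ENSG00000120129, chr5:172768090-172771195, minus strand) averaged 148 ± 38.6 CPM in the TIM-1 libraries against 147 ± 49.5 CPM in the controls (SD, n = 3 each, as for the genes that follow), a log2 difference of 0.01 (SE 0.31). DUSP6 (ENSG00000139318, chr12:89347232-89353271, minus strand) averaged 27.2 ± 14.6 and 26.1 ± 12.6 CPM, a log2 difference of 0.07 (SE 0.62). For both, the spread within each group was wide because replicate 1 was low. With replicate number as a block, DUSP1 differed by 0.04 (SE 0.07, edgeR adjusted p 0.835) and DUSP6 by 0.04 (SE 0.10, adjusted p 0.893). SPRED1 (ENSG00000166068, chr15:38252326-38357249, plus strand) averaged 32.3 ± 0.826 and 32.7 ± 5.09 CPM, with the highest value, 38.5 CPM, in empty vector replicate 1. SPRED2 (ENSG00000198369, chr2:65310851-65432637, minus strand) averaged 61.5 ± 1.09 and 63.6 ± 5.96 CPM. PHLDA1 (ENSG00000139289, chr12:76025447-76033932, minus strand) averaged 127 ± 3.10 and 128 ± 5.23 CPM, the narrowest relative range of the 10, and its exons overlap those of AC011611.4, which had 48 counts over the 6 libraries against 12450. The log2 differences of SPRED1, SPRED2 and PHLDA1 were -0.01 (SE 0.13), -0.05 (SE 0.10) and -0.01 (SE 0.08), and the groups of all 5 genes overlapped.

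Replicate 1 was then compared with replicates 2 and 3, with the vector as a term in the fit. This comparison does not use the vector difference for which DUSP4 was chosen. It was itself chosen with earlier results of these data known, in which replicate 1 of both groups stood apart. Its p-values and calls therefore describe these libraries and are no independent test of that split. DUSP6, DUSP1, DUSP5 and SPRY4 were lower in replicate 1 of both groups, and DUSP4 was higher. In edgeR's test 4 of the 10 genes were called lower and 1 higher, while 12.0% of all tested genes were called lower and 11.6% higher. The same 4 were lower under all 9 alternatives.

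DUSP6 differed most. It had 10.3 CPM in TIM-1 replicate 1 and 11.5 CPM in empty vector replicate 1, against 34.4 and 36.9 CPM in TIM-1 replicates 2 and 3 and 33.8 and 32.9 CPM in those of the empty vector. It fell by 1.65 on the log2 scale (SE 0.12, edgeR adjusted p 1.17e-10), a fold of 3.14. The drop was present in both groups, with log2 differences of -1.77 with TIM-1 and -1.52 with the empty vector. DUSP6 overlaps an antisense gene, AC024909.2, which had 8 counts against 2664 for DUSP6 over the 6 libraries.

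DUSP1, itself an immediate early gene, had 103 and 89.8 CPM in replicate 1 of the TIM-1 and empty vector groups. The other 4 libraries had 169, 171, 170 and 180 CPM. It fell by 0.84 on the log2 scale (SE 0.07, edgeR adjusted p 8.04e-09). DUSP5 averaged 26.2 CPM in replicate 1 and 42.3 CPM in the others, and fell by 0.69 (SE 0.10, adjusted p 9.03e-06). SPRY4 averaged 47.1 and 73.2 CPM, and fell by 0.64 (SE 0.08, adjusted p 2.23e-06). For these 4 genes and SPRED2 both replicate 1 libraries lay below the other 4 libraries, as they did for 20.4% of all tested genes.

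DUSP4 went against this group. It averaged 59.1 CPM in replicate 1 and 47.7 CPM in replicates 2 and 3, a log2 difference of 0.32 (SE 0.09, edgeR adjusted p 0.0104). That call was lost when TIM-1 replicate 1 (adjusted p 0.0890), control replicate 1 (0.182) or control replicate 2 (0.0503) was left out. Its ratio to DUSP6 in TPM was 4.54 in TIM-1 replicate 1 and 1.11 and 1.07 in replicates 2 and 3, against 2.47, 0.580 and 0.748 with the empty vector. DUSP4 thus exceeded DUSP6 per length in 4 libraries and lay below it in empty vector replicates 2 and 3.

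The last 5 members were not called in the replicate comparison. DUSP7 differed by 0.10 (edgeR adjusted p 0.457), SPRY2 by -0.08 (0.698), SPRED1 by 0.18 (0.221), SPRED2 by -0.12 (0.297) and PHLDA1 by -0.03 (0.783), all on the log2 scale. Close relatives therefore split: SPRY4 fell and SPRY2 did not pass, and DUSP6 fell and DUSP7, its close relative, did not pass. A difference between members of these pairs was not tested. Between replicates 3 and 2, edgeR called 0 of the 10 genes (1 with an unadjusted p under 0.05) and 0.0414% of all tested genes, and DESeq2 was not run. The interaction of vector and replicate 1 gave 0 called genes of all 14479 in edgeR (0.0%), with 779 at an unadjusted p under 0.05. Of the members only SPRED1 was among these, at -0.40 on the log2 scale, and DESeq2 was not run there either.

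**Figure D3:**
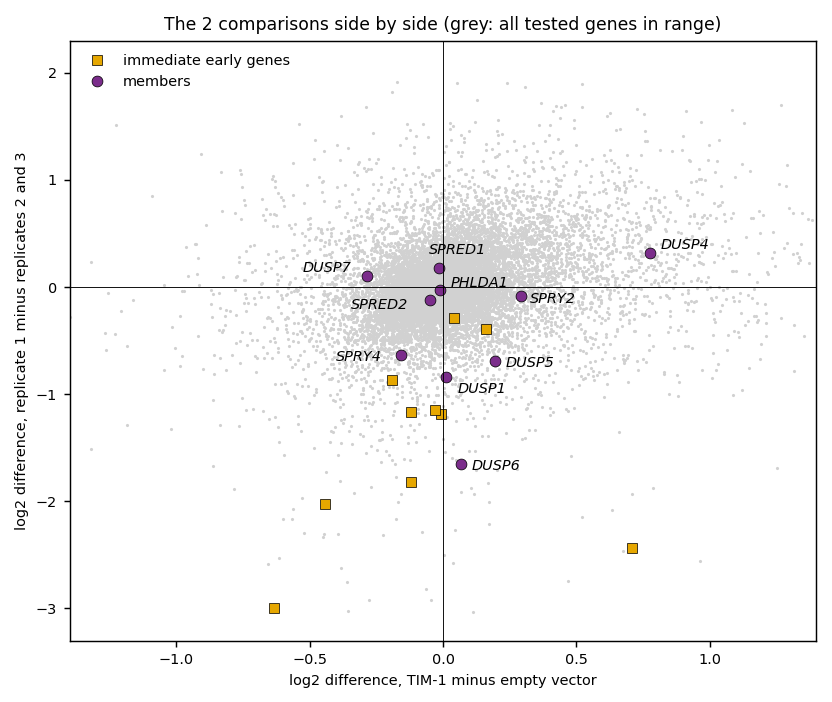
Log2 difference with TIM-1 (horizontal) and in replicate 1 against replicates 2 and 3 (vertical) for each of the 10 genes (circles), the immediate early genes (squares) and all other tested genes (grey), with genes beyond the axes not drawn. DUSP6, DUSP1, DUSP5 and SPRY4 lie low on the replicate axis near 0 on the TIM-1 axis, and DUSP4 lies to the right at 0.78 and 0.32.

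Because these members moved together in replicate 1, the sequence before their start sites is shown. Promoter windows were taken from RefSeq (GRCh38.p14) for 8 of the 10 members, and DUSP4 and DUSP5 had no entry. Each line gives the 250 bases upstream of the start, 5′ to 3′ on the gene's strand (minus for all 3), with capitals for the motifs found. The windows are chr5:172771196-172771445 for DUSP1, chr12:89352502-89352751 for DUSP6 and chr5:142324248-142324497 for SPRY4.
DUSP1: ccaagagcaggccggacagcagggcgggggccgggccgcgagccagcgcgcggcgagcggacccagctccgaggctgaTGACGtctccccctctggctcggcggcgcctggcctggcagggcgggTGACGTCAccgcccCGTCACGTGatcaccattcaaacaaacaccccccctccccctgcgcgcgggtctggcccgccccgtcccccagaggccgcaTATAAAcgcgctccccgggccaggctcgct
DUSP6: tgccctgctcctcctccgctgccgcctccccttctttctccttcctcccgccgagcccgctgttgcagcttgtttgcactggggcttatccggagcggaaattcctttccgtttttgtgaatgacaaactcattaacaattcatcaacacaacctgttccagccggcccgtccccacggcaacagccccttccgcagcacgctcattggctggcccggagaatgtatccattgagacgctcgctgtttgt
SPRY4: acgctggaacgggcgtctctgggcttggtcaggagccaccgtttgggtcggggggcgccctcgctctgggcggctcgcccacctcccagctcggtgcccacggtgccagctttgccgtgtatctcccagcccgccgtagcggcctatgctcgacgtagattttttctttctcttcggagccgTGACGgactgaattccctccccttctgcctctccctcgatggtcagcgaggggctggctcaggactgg

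The DUSP1 window held the full cyclic AMP response element TGACGTCA at 125 to 118 bases before the start, a motif present in 1.65% of the 35116 windows of this length. It also held further copies of the 5-base core TGACG (searched on both strands, so that CGTCA counts as a match), 1 of which at 111 to 107 overlaps an E-box CACGTG at 108 to 103. A TATAAA, searched on the reading strand only, lay at 30 to 25. The core was present in 21.2% of all windows, the E-box in 6.35% and the TATA box in 6.80%. SPRY4 held the core at 68 to 64, and the window of SPRY2, which was not called in the replicate comparison, held it at 190 to 186. The DUSP6 window held none of the motifs searched. The AP-1 sites TGACTCA and TGAGTCA, the octamers TGAATGAA and TGAATGGA bound by the repressor CIC, and the CArG box bound by serum response factor, searched on both strands, were in 0 of the 8 members' windows and in 4.20%, 2.19% and 1.16% of all windows. These are letter matches in short windows only. GC content was 74.4% for DUSP1, 57.2% for DUSP6 and 65.6% for SPRY4, against a median of 58.0% over all windows. Members not called in the replicate comparison had similar or higher values in part, with 78.4% for DUSP7 and SPRED1 and 70.4% for PHLDA1. The windows of SPRY2 had 70.4%, 62.4% and 41.2%, and those of SPRED2 58.8% and 39.2%.

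Other genes of the pathway were read from 6 lists. Immediate early genes, the first transcripts made after ERK and related kinases are activated, were lower in replicate 1: 9 of 10 tested members fell, beside 12.0% of all tested genes, with a median log2 difference of -1.18 against -0.01. FOS, a subunit of the AP-1 factor, had 86.4 and 85.1 CPM in replicate 1 of the TIM-1 and empty vector groups and 288 to 325 CPM in the other 4 libraries, and fell by 1.82 (SE 0.07, edgeR adjusted p 3.48e-15). FOSB, its relative, had 12.6 and 18.0 CPM in replicate 1 and 94.4 to 159 CPM in the other libraries, and fell by 2.99 (SE 0.10, adjusted p 6.95e-17). EGR1, a zinc finger factor, averaged 294 and 668 CPM and had a log2 difference of -1.18 (adjusted p 6.13e-12), and JUNB fell by 1.17 (adjusted p 5.99e-11). For these 4 genes, as for DUSP6, DUSP1, DUSP5 and SPRY4, the replicate 1 libraries were the lowest of the 6, as for 20.4% of all tested genes. The 4 were named for their small p in this comparison, and the 4 members were those called lower in it. This shared trait therefore follows largely from how the genes were picked.

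Of 14 tested ERK output genes outside the members, 6 fell in replicate 1 and 1 rose, with a median of -0.16, where 12.0% of all tested genes fell and 11.6% rose. A single riser of 14 is near or under that share. Beside EGR1, which is in both lists, MYC averaged 157 CPM in replicate 1 and 300.1 CPM in the others (log2 difference -0.93, edgeR adjusted p 5.62e-10), the growth factor gene HBEGF fell by 1.24 (adjusted p 1.02e-08) and the cytokine gene LIF by 0.72 (adjusted p 0.000480). LIF lost its call when control replicate 1 (0.0625) or control replicate 3 (0.0649) was left out. The list was mixed, with 7 of its tested members not called, and the number called lower ran from 3, without control replicate 1, to 6 when each library was left out.

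Of 20 tested genes of the core cascade, 5 were called higher in replicate 1 and 0 lower, with a median of 0.14, beside 11.6% of all tested genes called higher and 12.0% lower. MAP2K1, which encodes the ERK kinase MEK1, rose by 0.55 (SE 0.08, edgeR adjusted p 1.03e-05). The RAS exchange factor SOS1 rose by 0.35 (adjusted p 0.00371), and the adaptors GAB1 and GRB2 by 0.57 (0.0182) and 0.22 (0.0198). MAP2K1 kept its call when each library was left out in turn. SOS1 lost it without control replicate 1 (0.128). GAB1 lost it without TIM-1 replicate 1 (0.214) or 3 (0.0903) or control replicate 1 (0.118), and GRB2 without any of the 3 TIM-1 libraries or control replicate 1 (0.0552 to 0.315). The number of core genes called higher was then 1 without control replicate 1, where the fit called 708 of all tested genes higher, 2 without TIM-1 replicate 1 or 3, and up to 7 otherwise. Among other negative regulators of RAS and receptor signalling, 5 of 13 were higher and 0 lower, with a median of 0.16, against the same 11.6% and 12.0% over all tested genes. The 5 became 3 without TIM-1 replicate 1, TIM-1 replicate 3 or control replicate 1. The 5 included NF1, which encodes neurofibromin (0.35, adjusted p 0.000556), the ubiquitin ligase gene CBL (0.37, 0.000652), and the RAS GTPase activators DAB2IP (0.37, 0.00135) and RASA1 (0.30, 0.00889). DAB2IP lost its call without TIM-1 replicate 1 (0.194), and RASA1 without TIM-1 replicate 3 (0.0537) or empty vector replicate 1 (0.262).

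Of 4 tested other Sprouty, Spred and PHLDA genes, 1 was called higher in replicate 1 and 1 lower. Over all tested genes 11.6% were called higher and 12.0% lower. SPRY1 was scarce, with 3.59 and 4.13 CPM in replicate 1 of the TIM-1 and empty vector groups and 0.724 to 1.30 CPM in the other libraries, and rose by 1.91 (SE 0.31, edgeR adjusted p 6.36e-05), opposite to SPRY4. PHLDA2, a relative of PHLDA1, had 56.8 and 61.1 CPM in replicate 1 and 117 to 169 CPM in the other libraries, and fell by 1.20 (SE 0.09, adjusted p 4.37e-10). SPRY3 and SPRED3 were not called, and PHLDA3 did not pass the filter on low counts. Of 6 other MAP kinase phosphatases 1 was called lower, a share near the 12.0% over all tested genes. This was DUSP10, a JNK and p38 phosphatase, which fell by 1.06 (edgeR adjusted p 0.0356) but was not called with DESeq2 (0.0735). It was also lost without TIM-1 replicate 1 (0.196) or 2 (0.0878) and without empty vector replicate 1 (0.202) or 3 (0.109).

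**Figure D4:**
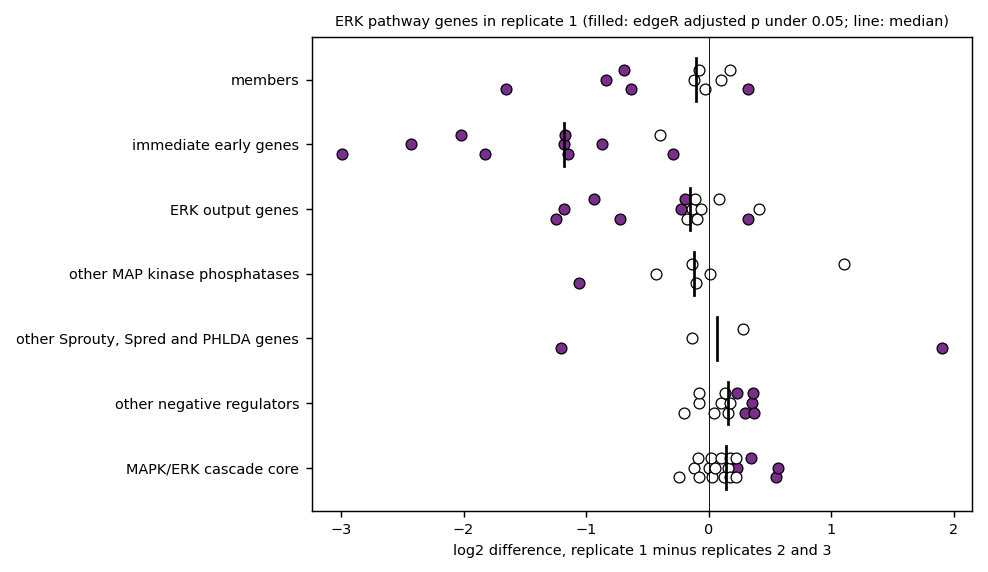
Log2 difference of replicate 1 against replicates 2 and 3 for each tested gene of the members and of the 6 lists, with called genes filled and a bar for each median. Immediate early genes lie lowest, with a median of -1.18, and the core cascade and the other negative regulators lie slightly above 0.

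Between the vectors, edgeR called 0 genes in each of the 6 lists, beside 2 of all 14479 tested genes (0.0138%). DESeq2 called 0 in the lists, beside 29 higher and 1 lower over all tested genes. Unadjusted edgeR p-values were under 0.05 for 795 of all 14479 tested genes. In the lists they were under 0.05 for 1 of 20 core genes, 0 of 6 other phosphatases, 1 of 4 other Sprouty, Spred and PHLDA genes, 0 of 13 negative regulators, 2 of 14 ERK output genes and 0 of 10 immediate early genes. The median log2 differences were 0.00, -0.08, 0.17, 0.08, -0.01 and -0.08 in that order. Among the most abundant members of each list, NRAS differed by -0.13, PTPN11 by -0.07, DUSP14 by -0.11, DUSP16 by -0.06, PHLDA2 by -0.34, SPRED3 by 0.29, ERRFI1 by 0.12, NF1 by 0.08, EGR1 by -0.01, CCND1 by -0.19, KLF6 by -0.19 and JUN by 0.04, and none passed.

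With replicate number as a block, a few of these genes were called, in a fit that called 3.22% of all tested genes higher and 1.79% lower. GAB1 had 11.8, 8.85 and 6.80 CPM in the TIM-1 libraries, compared with 6.77, 5.26 and 4.10 CPM in the controls, and rose by 0.76 (edgeR adjusted p 0.00203), the 1 called of 20 core genes, a share near that over all genes. MYC fell by 0.35 (adjusted p 0.000105) and FOSB by 0.62 (4.66e-08), and both calls held with DESeq2 and without each replicate pair. The ERK output list otherwise had CCND1 lower (-0.19, 0.0442) and IER3 higher (0.33, 0.00496). The immediate early list had ATF3 lower (-0.43, 0.0432), KLF6 lower (-0.19, 0.0469) and EGR3 higher (0.73, 0.0373), and PHLDA2 fell by 0.30 (0.00496). None of these 6 was called by DESeq2 in the blocked design, nor was GAB1 (0.0570). GAB1 kept its call without each replicate pair, whereas CCND1 and EGR3 lost theirs without any of the pairs. IER3 was lost without replicate 3 (0.0728), and PHLDA2 without replicate 2 (0.109) or 3 (0.169). ATF3 was lost without replicate 2 (0.408) or 3 (0.286), and KLF6 without replicate 1 (0.103) or 2 (0.503). No gene of the other phosphatases or negative regulators was called with the block.

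The genes whose pattern over the 6 libraries was most like that of DUSP4 were CKAP4, FAM210B, BFSP1, PINK1 and PAQR5, with Pearson r from 0.991 to 0.996 among 10014 coding genes of at least 5 CPM. CKAP4 had 152, 145 and 145 CPM in the TIM-1 libraries, compared with 132, 120 and 130 CPM in the controls, so its log2 difference of 0.21 was smaller than that of DUSP4. For DUSP6, the member with the widest range, the closest were CSRP2, CCDC86 and PQBP1 (r from 0.997 to 1.00), all following the 2 low replicate 1 libraries. With 6 libraries that share these 2 axes of difference and a search over 10014 genes, such values describe likeness only.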

How the data were processed

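The authors deposited raw counts of reads per Ensembl gene, with 1 column per library and no normalization. The tools listed are HISAT2 2.0.5 (alignment, build hg38), featureCounts 1.5.0-p3 (counting) and DESeq2 1.16.1, per the submitters' processing notes. Not given in the sources used here are the annotation, the strand setting and the treatment of reads with several matches, so reads of overlapping or antisense genes may be split or shared.

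Groups came from the treatment label and replicate numbers from the titles. The members, the gene lists and the comparison of replicate 1 were chosen with earlier results of these data known. Symbols were found for 60463 of 60605 identifiers, and 58337 were in GENCODE 29 (GRCh38), which gave positions and exon lengths. Genes were kept by filterByExpr with a minimum count of 10 and tested with edgeR 4.0.16 (robust quasi-likelihood F test, TMM factors, R 4.3.3, limma 3.58.1). P-values are two-sided, with Benjamini-Hochberg adjustment over 14479 genes and a threshold of 0.05. Log2 values are fitted differences, and SEs derive from the F statistic. CPM is the count divided by the TMM-scaled library size (edgeR cpm function). DUSP4 was part of the fit and the adjustment over all genes, but its p-values for the vectors are not given, because it was chosen for that difference.

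The text names all 10 members, from each list up to 4 called genes of smallest p or else the 2 most abundant, the 5 genes most like DUSP4, the 3 most like the most variable other member, and HAVCR1. SPRY3, PHLDA3, the genes overlapping a member, the epithelial markers, the genes at 0 in the other marker lists and the further list genes called with the block were named beside a count.

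Deviations from the group means correlated between same-numbered libraries at 0.53, 0.23 and 0.26 for replicates 1, 2 and 3, so the numbers were taken to pair the samples, although replicates 2 and 3 also correlated across numbers (0.19 and 0.26). Counts for the 14479 genes with 200 changed were simulated separately for each design. Libraries were drawn independently, at the trend of spread fitted under that design and with no shared replicate effect. A log2 change of 1 was recovered for 79.7% of genes in the unpaired comparison of the vectors, 81.4% with the block and 88.1% in the replicate comparison. A change of 0.5 was recovered for 14.7%, 64.7% and 53.7%. False calls were 8, 8 and 5 of 14279 unchanged genes. The shares come from different simulated counts, so they do not compare fits of the same data. Alternatives were RLE size factors, DESeq2 1.42.0, no filter, the block (for all replicates, for replicate 1 alone and with DESeq2) and leaving out each library or pair.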

Additional observations from a re-analysis of the deposited data

How the results depend on the processing

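DUSP6, DUSP1, DUSP5 and SPRY4 kept their calls in replicate 1 under all 9 alternatives. Between the vectors, the unpaired edgeR fit called 2 genes higher and 0 lower. DESeq2 called 29 and 1, no filter on low counts 60 and 12, and leaving out each library 1 to 8 and 0 to 1. The replicate block called 466 higher and 259 lower, a block for replicate 1 alone 348 and 162, DESeq2 with the block 151 and 76, and the block without each replicate pair 152 to 440 and 57 to 398 (339 and 134 without replicate 3). Of the 9 members other than DUSP4, the block called 1 lower (DUSP7) and changed no other call, and it called 0 to 1 without each replicate pair. Leaving out each library, the comparison of replicate 1 called 708 to 1963 genes higher and 670 to 2058 lower, with 0 to 1 members higher. The lowest counts came without empty vector replicate 1, and without TIM-1 replicate 1 they were 784 and 833. The cause of these shifts was not tested.

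Several differences near 0 changed sign when a library was left out. Between the vectors, DUSP1 ran from -0.25 to 0.21, DUSP6 from -0.29 to 0.45, SPRED1 from -0.097 to 0.12, SPRED2 from -0.12 to 0.020, PHLDA1 from -0.044 to 0.018, SPRY4 from -0.34 to 0.022 and KLF6 from -0.44 to 0.036. With the replicate block and replicate 1 left out, DUSP1 was -0.045, SPRED1 0.13 and PHLDA1 0.0037. With the block and replicate 3 left out, DUSP6 was -0.041, SPRED2 0.0096 and PHLDA1 0.0069. In the comparison of replicate 1, SPRED1 ran from -0.027 to 0.37. The unpaired SE of DUSP6 was 0.62, which limits what could be detected for it in that fit with 3 libraries per group. With the replicate block its difference was 0.04 (SE 0.10, edgeR adjusted p 0.893).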
